A study of Mus musculus with 32 samples.

Results

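In 4T1 spheroids in which Dhps was silenced, mRNA in the polysomal fraction of a sucrose gradient was compared with mRNA in the sub-polysomal fraction of the same spheroid pellets. The comparison (ASP shDHPS) comprised 8 of the 32 mRNA libraries of the series, the polysomal and the sub-polysomal library of each of 4 independent pellets. They were taken by the condition and fraction in their labels and paired by pellet. 4T1 is a mouse mammary carcinoma cell line, and its spheroids were kept for 5 days in lung-like medium, a medium modelled on lung interstitial fluid, with 700 µM aspartate. The cells carried an shRNA against Dhps as a polyclonal, puromycin-selected line. The other 3 conditions, each with 4 pellets and 8 libraries, were scramble-shRNA spheroids with aspartate (ASP shSCR), Grin2d-silenced spheroids with aspartate (ASP shGRIN2D), and scramble-shRNA spheroids without added aspartate (NoASP shSCR), all in the same lung-like medium. Polysomal RNA was RNA on more than 3 ribosomes and sub-polysomal RNA was RNA on fewer than 3. The value followed was the log2 ratio of polysomal over sub-polysomal normalised counts (CPM, scaled to a common library size with TMM factors), so a positive ratio means a larger share of the polysomal than of the sub-polysomal library. No spike-in RNA is described, so a ratio is relative to the other genes and is not the percentage of an mRNA that was on polysomes.

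Dhps encodes deoxyhypusine synthase, which transfers an aminobutyl group from the polyamine spermidine to a lysine of eIF5A. Deoxyhypusine hydroxylase (Dohh) then completes the residue hypusine, which is known from eIF5A and its paralog only. Hypusinated eIF5A binds the ribosome near the exit site and helps peptide bond formation where it is slow, such as at runs of proline, and it also helps termination. An mRNA moves to heavier gradient fractions when more ribosomes start on it and also when ribosomes leave it more slowly, so the fraction reports how many ribosomes an mRNA carried and not how fast they moved.

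The polysomal libraries of replicates 1 to 4 held 16552357, 18035876, 17935016 and 18225962 counts, and the sub-polysomal libraries 21661418, 17673286, 18782362 and 16391556. Over all 32 libraries the totals ran from 12870563 to 25639437. Mitochondrially encoded mRNAs, which are translated inside mitochondria and not by cytosolic polysomes, took 0.353%, 0.522%, 0.42% and 0.833% of the polysomal and 7.61%, 5.6%, 5.48% and 6.58% of the sub-polysomal counts, so the fractions did not overlap. Among the libraries used for comparison, the polysomal library of ASP shSCR replicate 1 stood apart. Mitochondrially encoded mRNAs took 4.72% of its counts, against 0.692% to 1.00% in the other 3 polysomal libraries of that condition. When each library was placed between the average profiles of the fractions in the conditions other than its own (sub-polysomal at 0, polysomal at 1), this library came to 0.372 and the remaining 15 polysomal libraries to 0.777 to 1.27. Counts of calls and list medians of ASP shSCR are therefore also given without this pellet. Of the ASP shDHPS pellets, replicate 1 had the widest ratios, with an SD over genes of 1.32 against 1.00, 0.938 and 1.04 in replicates 2 to 4.

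The epithelial origin given in the labels was visible in all 8 libraries. Krt8 and Krt18, keratins of simple epithelia, had 635 to 2310 and 545 to 1590 CPM, and the adhesion molecules Epcam and Cdh1 had 233 to 613 and 107 to 496 CPM. All 8 epithelial markers listed were among the counted genes, and together they came to 2270 to 7760 CPM. For white blood cells 2 of 5 markers were among the counted genes, with a sum of 7.08 to 26.7 CPM, nearly all of it Cd68, a lysosomal protein (6.68 to 26.4 CPM), while Ptprc was at 0 to 0.657. Of 3 endothelial markers 1 was counted (Pecam1, 0 to 0.253 CPM). The fibroblast and smooth muscle markers (2 of 5 counted) came to 109 to 225 CPM, of which Thy1, a surface glycoprotein of many cell types, gave 97.8 to 209.

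Dhps itself (ENSMUSG00000060038, chr8:85071757-85075162 in GRCm38) was lower in the silenced line in both fractions. The polysomal libraries of ASP shDHPS held 9.36, 13.3, 11.2 and 8.42 CPM and the sub-polysomal libraries 9.98, 10.8, 10.2 and 8.96. In ASP shSCR, the polysomal libraries held 18.9, 43.2, 34.7 and 31.3 CPM and the sub-polysomal libraries 42.9, 33.2, 43.3 and 41.3. The silenced and the scramble pellets did not overlap in either fraction, and the lowest scramble value came from the library that stood apart. With each fraction fitted on its own, the level was 24.9% of that of ASP shSCR in sub-polysomal RNA (log2 −2.01, SE 0.16, adjusted p = 1.11e-08) and 32.1% in polysomal RNA (log2 −1.64, SE 0.23, adjusted p = 0.0167). The polysomal call was lost without ASP shDHPS replicate 1 (adjusted p = 0.0963), ASP shDHPS replicate 3 (adjusted p = 0.111) or ASP shSCR replicate 2 (adjusted p = 0.0546). In bulk RNA, fewer cells with Dhps mRNA and less of it per cell cannot be told apart. The Dhps mRNA that remained did not differ between the fractions beyond its error, with a log2 ratio of 0.06 (SE 0.21, adjusted p = 0.843).

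**Figure D1:**
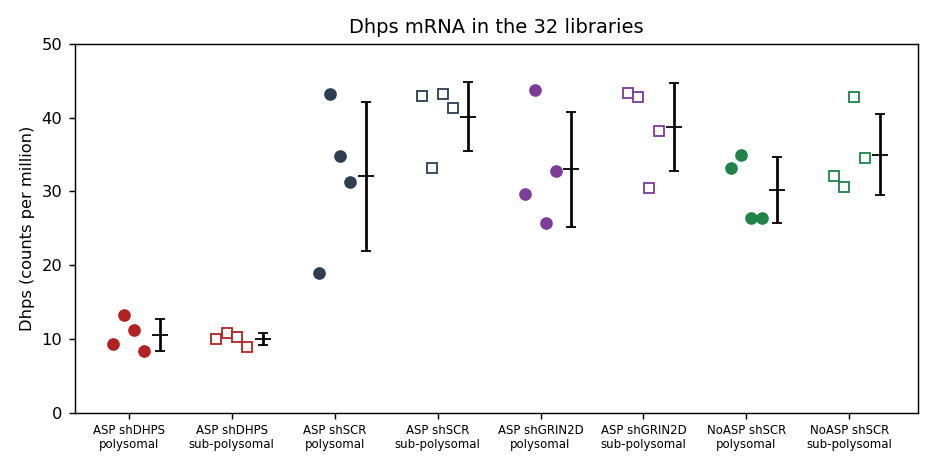
Dhps mRNA in CPM (y axis) in each of the 32 libraries, by condition and fraction (x axis). Each point is 1 library, and the line with caps gives the mean and SD of 4 pellets. The 8 ASP shDHPS libraries sit between 8.42 and 13.3 CPM and the 24 others at 18.9 CPM or above.

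Across the 17757 genes of the table, 149 of which had no count in these 8 libraries, 3867 (21.8%) were higher in polysomal and 3787 (21.3%) higher in sub-polysomal RNA of ASP shDHPS at an adjusted p under 0.05 (edgeR's quasi-likelihood test), or 43.1% in either direction, and 10103 were not called. Of the 7654 called genes, 7430 had a ratio of the same sign in all 4 pellets. The median log2 ratio over all genes was −0.09, with quartiles of −1.01 and 0.69. Ratios of different pellets had Spearman correlations across genes of 0.819 to 0.876, a description, since genes are not independent replicates. In total 2047 genes (11.5%) were called with a log2 ratio above 1 and 2442 (13.8%) with a ratio below −1. Of the 13409 protein-coding genes, 27.8% were higher and 23.8% lower in polysomal RNA, with a median of 0.03.

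The genes of hypusine and polyamine metabolism lay on both sides. Of 14 listed genes, all of them counted, 3 (21.4%) were higher in polysomal and 5 (35.7%) in sub-polysomal RNA, where all genes had 21.8% and 21.3%, and their median log2 ratio was −0.23. Here and below, the highest and lowest member of a list are those among members with a mean of at least 50 counts. Without replicate 1 the polysomal calls were 1. Eif5a, the substrate of Dhps, was near balance at 1874, 2239, 2577 and 1507 CPM in the polysomal and 2005, 1898, 1943 and 1974 CPM in the sub-polysomal libraries. Its fractions overlapped (log2 ratio 0.04, SE 0.23, adjusted p = 0.92), and its sign turned under other settings. Eif5a2, its less abundant paralog, was sub-polysomal, with 2.25, 8.29, 1.29 and 6.77 against 23.9, 17.2, 14.7 and 16.8 CPM (log2 ratio −2.22, SE 0.34, adjusted p = 6.31e-06). Dohh had a log2 ratio of 0.45 (SE 0.18, adjusted p = 0.043), a call that was lost without replicate 1, 3 or 4 (adjusted p = 0.168, 0.106 and 0.1) and with DESeq2 size factors (adjusted p = 0.0547).

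The regulated enzymes of polyamine synthesis were among the more sub-polysomal mRNAs. Amd1, S-adenosylmethionine decarboxylase, had 62.6, 79.9, 79.0 and 119 CPM in polysomal and 642, 574, 415 and 384 CPM in sub-polysomal libraries. The fractions were far apart in each pellet, and the sub-polysomal level was 5.94-fold the polysomal one (log2 ratio −2.57, SE 0.26, adjusted p = 2.93e-08). A short open reading frame upstream of the Amd1 start codon, whose translation depends on polyamines, is known to hold the mRNA back from polysomes. It is printed here because it is the element for which this mRNA is known, as RNA-sense DNA of GRCm38 and GENCODE transcripts, with the reading frame of 6 codons and its stop in capitals.
Amd1, chr10:40302153-40302179, minus strand: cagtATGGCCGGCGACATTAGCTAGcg

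Odc1, ornithine decarboxylase, the first enzyme of the pathway, had 285, 251, 246 and 200 CPM in polysomal and 985, 857, 657 and 672 CPM in sub-polysomal libraries, again without overlap (log2 ratio −1.68, SE 0.42, adjusted p = 0.00154). Its antizyme Oaz1, which targets ornithine decarboxylase to the proteasome and is made through a ribosomal frameshift, was sub-polysomal as well (−1.41, SE 0.18, adjusted p = 6.45e-07), and so was Oaz2 by a smaller ratio (−0.49, SE 0.18, adjusted p = 0.0328), whose call was lost without replicate 1, 2 or 4 (adjusted p = 0.0605 to 0.198). The antizyme inhibitor Azin1 was polysomal, with 255, 291, 218 and 264 against 155, 136, 148 and 175 CPM (0.74, SE 0.17, adjusted p = 0.000622). Paox, which oxidises acetylated polyamines, was polysomal (0.70, SE 0.20, adjusted p = 0.00624), but not without replicate 1 (adjusted p = 0.0875). The ratios of spermidine synthase Srm (−0.25), spermine synthase Sms (−0.21), the acetyltransferase Sat1 (−0.33) and the oxidase Smox (0.03) did not pass the test. None of the 14 genes differed from another condition at the threshold. Amd1, for example, had log2 ratios of −1.62 in ASP shSCR, −2.19 in ASP shGRIN2D and −2.03 in NoASP shSCR, and its difference of −0.62 (SE 0.29) from their mean had an adjusted p of 0.398.

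mRNAs of the cytosolic ribosome were mostly sub-polysomal. Of 79 ribosomal protein genes 50 were higher in sub-polysomal RNA and 1 in polysomal RNA, and the median log2 ratio was −0.68. Together these genes took 7.83% ± 0.808 (SD, n = 4) of polysomal and 12.3% ± 1.96 of sub-polysomal counts. Rplp0, a stalk protein of the large subunit, had 874, 748, 860 and 681 CPM in polysomal and 5057, 5251, 4127 and 3553 CPM in sub-polysomal libraries (log2 ratio −2.50, SE 0.40, adjusted p = 1e-05), with a wide gap between the fractions. Rpsa, the most abundant member, had a ratio of −1.69 (SE 0.33, adjusted p = 0.000114). The single polysomal member was Rpl7a, at 1502, 1356, 1382 and 1626 against 1033, 1194, 961 and 916 CPM (0.52, SE 0.21, adjusted p = 0.0458), a call that was lost without replicate 1, 3 or 4.

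These mRNAs belong to the TOP class, whose members start with a cytosine and a run of pyrimidines at the 5′ end, through which their translation is held back when mTOR signalling is low. Of 16 other TOP mRNAs 9 were higher in sub-polysomal and 2 in polysomal RNA (median −0.71), or 5 and 4 without replicate 2. Pabpc1, the cytoplasmic poly(A)-binding protein, was the most sub-polysomal of them, with 485, 623, 631 and 774 against 5048, 4710, 3411 and 4775 CPM, 7.16-fold more in the sub-polysomal fraction (log2 ratio −2.84, SE 0.35, adjusted p = 3.07e-07). The elongation factor Eef1a1 had 5709, 4468, 6119 and 10160 against 14410, 13720, 11090 and 9723 CPM, and in replicate 4 the fractions were nearly equal (−0.94, SE 0.31, adjusted p = 0.0133). Without replicate 1 or 2 its call was lost. Eef1d, a subunit of the exchange factor of eEF1A, was polysomal (1.59, SE 0.20, adjusted p = 3.6e-07).

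To show what the class looks like, 25 bases around the annotated start are printed for 4 ribosomal protein genes of differing ratio, with the pyrimidine run at the start in capitals (RefSeq promoter table, GRCm38.p6). Rps26 is shown because its ratio differed between conditions, and its entry has no such run at the annotated base. Rpl41 had the lowest ratio of the 4 and has no such run there either, and the same holds for the entry of Eef1a1.
Rps6, chr4:86857353-86857377, minus strand, log2 ratio −0.43: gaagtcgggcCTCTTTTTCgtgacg
Rps27, chr3:90213634-90213658, minus strand, log2 ratio −1.79: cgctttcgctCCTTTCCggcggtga
Rps26, chr10:128626492-128626516, minus strand, log2 ratio −0.40: gcaagccgccggatcctctttcgag
Rpl41, chr10:128549154-128549178, minus strand, log2 ratio −2.35: gggccggctcggaagtgacgacacc
A start of this kind, a C followed by at least 4 C or T, was present in 14 of the 58 ribosomal protein genes with an entry and in 2.51% of all 32851 promoter entries. The median log2 ratio of the 264 genes with it minus that of the other genes was −0.33, −0.22, −0.19 and −0.20 in the 4 pellets. Moving the accepted start by up to 3 bases brought 24 of the 58 ribosomal protein genes and 11.5% of all entries into the class, and the mean difference became −0.09 instead of −0.23.

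Initiation factors went the other way. Of 36 genes 24 (66.7%) were higher in polysomal and 5 (13.9%) in sub-polysomal RNA, where all genes had 21.8% and 21.3%. The median log2 ratio was 0.71, and the sub-polysomal calls were 3 without replicate 1, 2 or 3. Eif3e, Eif3f, Eif3h and Eif4b were counted both in this list and among the other TOP mRNAs. Eif2b3, a subunit of the exchange factor that recharges eIF2, had 36.7, 35.6, 38.8 and 58.2 against 8.01, 9.29, 11.2 and 12.5 CPM (2.04, SE 0.20, adjusted p = 1.5e-08), and every polysomal value lay above every sub-polysomal one. Eif4a1, the RNA helicase of the cap-binding complex, had 2395, 1541, 1924 and 3039 against 673, 595, 670 and 584 CPM (1.77, SE 0.24, adjusted p = 1.02e-06). Eif4ebp1, a repressor of the cap-binding protein and an mTOR target, was the lowest of the list (−1.22, SE 0.22, adjusted p = 6.04e-05).

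Of 14 mRNAs linked to the integrated stress response, several of which carry upstream open reading frames, 2 were higher in polysomal and 3 in sub-polysomal RNA (median −0.30), or 14.3% and 21.4% against 21.8% and 21.3% of all genes. The transcription factor Atf4, the best-known of them, was sub-polysomal with 168, 204, 231 and 184 against 469, 505, 479 and 392 CPM (−1.23, SE 0.19, adjusted p = 6.83e-06). Its target Asns, asparagine synthetase, which makes asparagine from aspartate, was polysomal with 138, 93.2, 119 and 150 against 36.2, 34.2, 46.5 and 41.9 CPM (1.64, SE 0.18, adjusted p = 9.06e-08). Neither gene had overlapping fractions. The ratios in the other conditions were close by, at −1.49 to −1.17 for Atf4 and 1.38 to 1.76 for Asns.

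mRNAs with an iron-responsive element near the cap are held out of polysomes by iron regulatory proteins when iron is low. Of 6 members of the iron list with counts in these libraries 3 were sub-polysomal and 1 polysomal (median −1.09). The ferritin heavy chain Fth1 had 1087, 1223, 1398 and 1594 against 5404, 5583, 5676 and 5967 CPM, 4.31-fold more in the sub-polysomal fraction (log2 ratio −2.11, SE 0.54, adjusted p = 0.0022). The light chain Ftl1 (−2.07, SE 0.52, adjusted p = 0.00193) and the iron exporter Slc40a1 (−2.22, SE 0.26, adjusted p = 1.31e-07) had similar ratios, Slc40a1 on only 29 to 64 polysomal counts per library. The transferrin receptor Tfrc, whose elements lie in the 3′ UTR and govern stability, was polysomal (0.53, SE 0.21, adjusted p = 0.0382), a call lost without replicate 2 or 4. The stretches around the letters CNNNNNCAGTG, which the element contains, are printed for the 3 sub-polysomal members with the first C and CAGTG in capitals (GRCm38, GENCODE transcripts). The letters were also in the 5′ UTR of Epas1, which had 0 counts in these libraries. They were in 8.26% of 20476 5′ UTRs searched on the RNA strand, so a match is a description and not a site.
Fth1, chr19:9982732-9982757, plus strand: ttcctgCttcaaCAGTGcttgaacgg
Ftl1, chr7:45459782-45459807, minus strand: gtcttgCttcaaCAGTGtttgaacgg
Slc40a1, chr1:45925468-45925493, minus strand: caacttCagctaCAGTGttagctaag

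Selenoproteins, in which a stop codon is read as selenocysteine, were spread over both fractions, with 6 of 20 counted genes (30%) higher in polysomal and 6 in sub-polysomal RNA (median −0.10), where all genes had 21.8% and 21.3%. Selenow, a small redox protein, was the lowest at 76.4, 79.0, 118 and 88.9 against 616, 702, 568 and 389 CPM (−2.64, SE 0.24, adjusted p = 8.1e-09). Selenof, a protein of the endoplasmic reticulum, was sub-polysomal too (−1.57, SE 0.28, adjusted p = 4.02e-05), and the reductase Txnrd3 was the highest of those with a mean of at least 50 counts (1.26, SE 0.31, adjusted p = 0.00147).

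RNAs that are not translated on cytosolic ribosomes were the most sub-polysomal lists. Of 24 counted noncoding RNAs 22 were higher in sub-polysomal and 0 in polysomal RNA (median −2.15). Malat1, a nuclear RNA, had 4.56, 9.30, 12.5 and 4.24 against 63.2, 53.2, 74.9 and 85.4 CPM (−3.27, SE 0.33, adjusted p = 2.17e-08). Norad, a cytoplasmic RNA that binds Pumilio proteins, had 29.0, 39.1, 49.1 and 45.8 against 412, 255, 252 and 272 CPM (−2.86, SE 0.27, adjusted p = 1.38e-08). The snoRNA host gene Snhg3 was the least sub-polysomal member that was called (−0.75, SE 0.21, adjusted p = 0.00483), a call lost without replicate 1 (adjusted p = 0.0641). All 13 mitochondrially encoded mRNAs were sub-polysomal, from mt-Nd6 (−2.57, SE 0.25) to mt-Nd3 (−4.36, SE 0.81), with a median of −3.96. They took 0.516% ± 0.212 of polysomal and 6.09% ± 0.973 of sub-polysomal counts (SD, n = 4). mt-Co1, a core subunit of complex IV, had 981, 1647, 1241 and 2693 against 19790, 14960, 12810 and 14140 CPM (−3.32, SE 0.37, adjusted p = 7.39e-08).

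Nuclear genes for mitochondrial proteins had calls in both directions, where all genes had 21.8% polysomal and 21.3% sub-polysomal calls. Of 78 mitochondrial ribosomal proteins 34 (43.6%) were higher in polysomal and 15 (19.2%) in sub-polysomal RNA (median 0.38), the latter below the share of all genes. Mrps22 was at the top (1.65, SE 0.19, adjusted p = 1.14e-07) and Mrps24 at the bottom (−1.92, SE 0.25, adjusted p = 7.72e-07). Of 73 respiratory chain genes 29 (39.7%) were higher and 20 (27.4%) lower (median 0.17), and the lower calls were 13 without replicate 1. Ndufa9, an accessory subunit of complex I, had 126, 122, 130 and 132 against 28.5, 21.6, 32.1 and 36.0 CPM (2.13, SE 0.19, adjusted p = 8.1e-09). Cox8a, a very small subunit of complex IV, had 170, 213, 247 and 169 against 694, 823, 745 and 510 CPM (−1.79, SE 0.20, adjusted p = 6.87e-08). Atp5b, the catalytic subunit of ATP synthase, was polysomal (1.63, SE 0.20, adjusted p = 3.41e-07).

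In the secretory pathway, chaperones and collagen-modifying enzymes were mostly polysomal, while most collagen chains were not called. Of 22 chaperones and collagen-modifying enzymes 14 were higher in polysomal and 2 in sub-polysomal RNA (median 0.95), or 1 in sub-polysomal RNA without replicate 1. Pdia6, a protein disulfide isomerase, had 396, 243, 378 and 366 against 65.2, 64.9, 84.5 and 82.9 CPM, 4.60-fold more in the polysomal fraction (2.20, SE 0.20, adjusted p = 6.77e-09). The lectin chaperone Calr was polysomal as well (1.58, SE 0.21, adjusted p = 8.12e-07), and Creld2, which is secreted under endoplasmic reticulum stress, was the lowest member with a mean of at least 50 counts (−0.88, SE 0.20, adjusted p = 0.000675). Of 20 collagen chains with counts in these libraries 7 were polysomal and 1 sub-polysomal (median 0.39). Over all genes 21.8% were polysomal and 21.3% sub-polysomal. Col18a1, a basement membrane collagen, had 599, 266, 605 and 666 against 125, 137, 197 and 182 CPM (1.68, SE 0.28, adjusted p = 1.84e-05). Col7a1, which forms anchoring fibrils, was the sub-polysomal one (−0.68, SE 0.21, adjusted p = 0.0116), and its call was lost without replicate 2. Without replicate 1 the list had 4 polysomal calls and without replicate 4 it had 3.

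The TGF-β pathway, which drives collagen synthesis in many tissues, was mostly sub-polysomal. Of 28 ligands, receptors, SMADs and regulators 15 (53.6%) were higher in sub-polysomal and 6 (21.4%) in polysomal RNA. Over all genes these shares were 21.3% and 21.8%. The median log2 ratio was −0.44, and it was below 0 in ASP shSCR (−0.22), ASP shGRIN2D (−0.28) and NoASP shSCR (−0.14) as well. The median difference from their mean was −0.06, and 0 genes of the list were called in any comparison with the other conditions. The study drew attention to this pathway from the same libraries, so the list is not independent evidence of a direction. Without replicate 3 the sub-polysomal calls were 9. Among ligands, Tgfb1 was sub-polysomal (−1.25, SE 0.23, adjusted p = 7.75e-05) and Ltbp3, a latency protein, polysomal (0.70, SE 0.21, adjusted p = 0.00898), the latter not without replicate 1 (adjusted p = 0.108). Among receptors, Bmpr1a, which binds bone morphogenetic proteins, had 32.3, 48.1, 35.3 and 44.9 against 205, 152, 123 and 140 CPM (−1.94, SE 0.20, adjusted p = 4.05e-08), and Tgfbr1 (−1.18, SE 0.21, adjusted p = 5.19e-05) and Tgfbr2 (−1.25, SE 0.17, adjusted p = 1.03e-06) were sub-polysomal. Among SMADs, which carry the signal to the nucleus, Smad3 (−0.45, adjusted p = 0.0409) and Smad4 (−0.84, adjusted p = 0.000504) were sub-polysomal and Smad2 (−0.30, adjusted p = 0.173) was not called.

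Formins and WASP-family proteins nucleate actin and carry long proline runs, the sequences at which ribosomes are known to depend on eIF5A. Of 21 counted members 4 were higher in polysomal and 3 in sub-polysomal RNA (median 0.07), or 19% and 14.3%, both below the 21.8% and 21.3% of all genes, and 0 polysomal calls were left without replicate 1. Fmnl3 (0.79, SE 0.22, adjusted p = 0.00377, or 0.0722 without replicate 1) was the highest member and Wasf1 (−1.08, SE 0.22, adjusted p = 0.000176) the lowest. Vasp, which extends actin filaments and was the most abundant, was in balance (0.07, SE 0.16, adjusted p = 0.774). Its longest run of proline codons, 5 in a row, is printed with these codons in capitals as an example of such a sequence (GRCm38, GENCODE transcripts).
Vasp, chr7:19261019-19261039, minus strand: ggcCCTCCTCCACCTCCAgga

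The list with the highest median was the proteasome, the protease complex that degrades ubiquitylated proteins. Of 31 subunits of its core and its regulatory particle 30 were higher in polysomal and 0 in sub-polysomal RNA (median 1.74). Together the 31 took 1.01% ± 0.0591 of polysomal and 0.349% ± 0.032 of sub-polysomal counts (SD, n = 4). The figures label this list core subunits. Psmc2, an ATPase of the regulatory particle, had 334, 292, 306 and 452 against 57.3, 58.9, 76.5 and 77.5 CPM, 5.10-fold more in the polysomal fraction (2.35, SE 0.19, adjusted p = 3.32e-09). The exception was Psmd8, with 171, 280, 274 and 252 against 319, 259, 263 and 242 CPM, where replicate 1 alone had less in the polysomal fraction (−0.16, SE 0.22, adjusted p = 0.602). Genes of cholesterol synthesis and its control were polysomal in 12 of 17 cases and sub-polysomal in 3 (median 0.94), or in 1 without replicate 2 or 4. Fdps, which makes farnesyl diphosphate, had 413, 245, 307 and 333 against 85.0, 83.9, 84.3 and 82.5 CPM (1.93, SE 0.20, adjusted p = 3.57e-08). Among the sub-polysomal members were Insig1, which retains the SREBP complex in the endoplasmic reticulum (−1.49, SE 0.21, adjusted p = 2.72e-06), and the kinase Mvk (−0.50, SE 0.16, adjusted p = 0.0109).

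**Figure D2:**
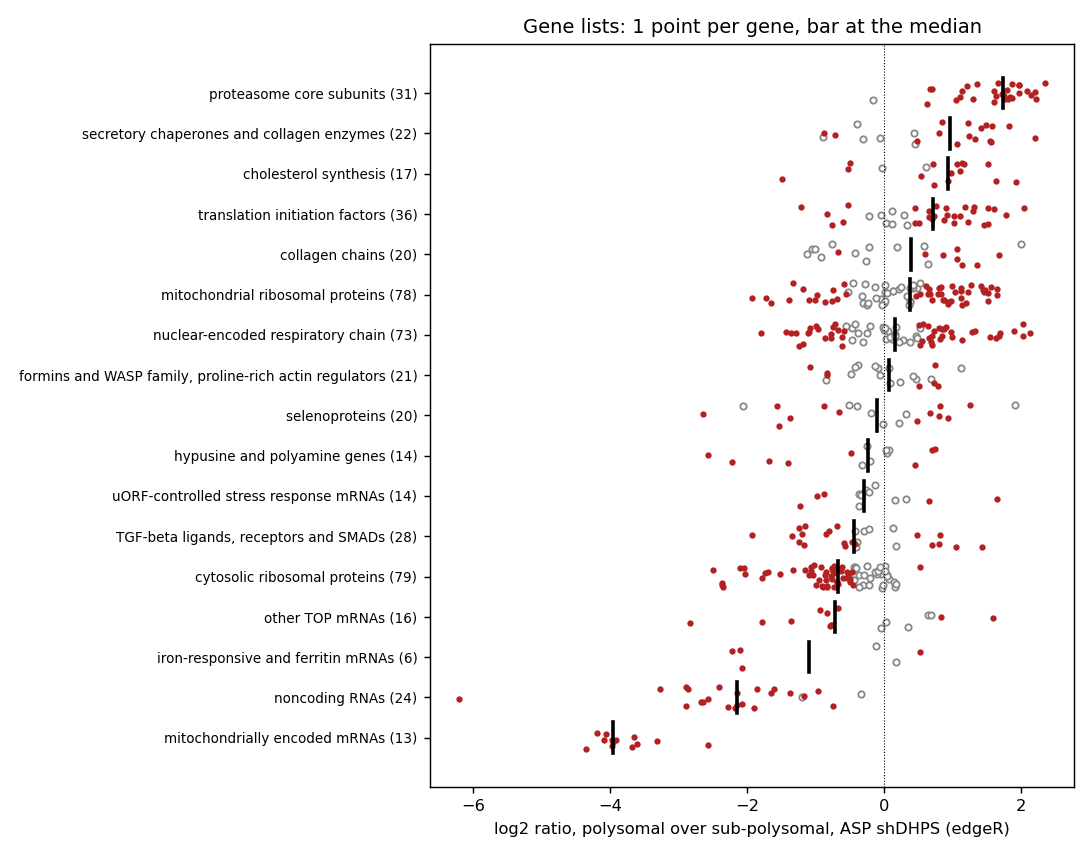
Log2 ratio of polysomal over sub-polysomal RNA in ASP shDHPS (x axis) for each member of 17 gene lists with counts in these 8 libraries (y axis, number of genes in parentheses). Each point is 1 gene, filled where its adjusted p was under 0.05 and open otherwise, and the bar marks the median of the list. Medians run from 1.74 for the proteasome to −3.96 for mitochondrially encoded mRNAs.

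Outside these lists, the largest polysomal ratios among well-counted genes included Gsta4, a glutathione transferase, with 355, 322, 443 and 725 against 52.0, 59.5, 102 and 104 CPM (log2 ratio 2.54, SE 0.20, adjusted p = 3.32e-09). Spp1, which encodes the secreted matrix protein osteopontin, had 4620, 4369, 4183 and 7173 against 782, 814, 1156 and 1082 CPM (2.39, SE 0.21, adjusted p = 6.58e-09). The lysosomal protease Ctsl (2.39, SE 0.20, adjusted p = 4.19e-09), the NADPH-sensing protein Nmral1 (2.39, SE 0.24) and the muscle ubiquitin ligase Trim54 (2.39, SE 0.42) were of similar size. Fractions did not overlap for Gsta4, Spp1 or Ctsl. Another 4 genes of the top 10 are less certain. The pseudogenes Gm10259, Gm21596 and Pcna-ps2 can share reads with their parent genes, and Gm10259 and Gm49342 had 0 counts in 2 sub-polysomal libraries each, so their fitted ratios of 4.54 and 4.24 depend on the small count added.

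At the other end stood Exosc6, a subunit of the RNA exosome, with 0, 62, 0 and 0 counts in polysomal and 328, 309, 147 and 134 counts in sub-polysomal libraries (fitted log2 ratio −4.97, SE 1.13, adjusted p = 0.000862). Every sub-polysomal count was above every polysomal one, and the size of the ratio is uncertain because 3 libraries were at 0. The other 9 of the 10 lowest were 7 mitochondrially encoded mRNAs and Gm28439 and Gm10925, pseudogenes on chromosome 1 that are copies of mitochondrial sequence and can share their reads.

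The ratio varied with the length of the coding sequence. Among 10486 well-counted coding genes, the median log2 ratio was −0.91 ± 0.39 (SD, n = 4) for those of up to 100 codons, −0.31 ± 0.30 at 100 to 200 codons and 0.27 ± 0.16 at 800 to 1000 codons, and it fell back to −0.07 ± 0.13 above 2000 codons. In the longest class the other conditions had 0.28 ± 0.24 (ASP shSCR), 0.18 ± 0.24 (ASP shGRIN2D) and 0.40 ± 0.22 (NoASP shSCR). Spearman's rho across genes between ratio and coding length was 0.218, 0.013, 0.004 and 0.109 in the 4 ASP shDHPS pellets, lower on average (0.086) than in ASP shSCR (0.187), ASP shGRIN2D (0.172) or NoASP shSCR (0.231). The differences of −0.100 and −0.0857 from ASP shSCR and ASP shGRIN2D were smaller than the SD of the pellets of those conditions (0.159 and 0.16), and that of −0.145 from NoASP shSCR was larger than the SD of either condition (0.1 and 0.0839). The exact permutation test over pellets (two-sided, 4 against 4, smallest possible p = 0.0286) gave p = 0.343, p = 0.4 and p = 0.0857, or 0.789, 0.789 and 0.514 after adjustment over 6 comparisons, where a single comparison on its own cannot reach 0.05. With transcript length in place of coding length the difference from NoASP shSCR was −0.163, at the smallest p the exact permutation test can give (p = 0.0286).

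Along the GC content of the coding sequence, a relation chosen after its values were seen, the values are given as a description with no test. In 5 classes of equal gene number from the lowest to the highest GC content, the median ratios of ASP shDHPS were −0.01 ± 0.29, 0.21 ± 0.13, 0.24 ± 0.03, 0.16 ± 0.18 and −0.03 ± 0.23 (SD, n = 4). ASP shSCR fell from 0.50 ± 0.19 to −0.34 ± 0.15 over the same classes, ASP shGRIN2D from 0.42 ± 0.19 to −0.24 ± 0.13 and NoASP shSCR from 0.43 ± 0.09 to −0.21 ± 0.07. The rho across genes was 0.155, −0.125, 0.061 and −0.198 in the ASP shDHPS pellets, so 2 of these pellets were positive, whereas the 12 other pellets lay between −0.457 and −0.101. The overlap comes from ASP shDHPS replicates 2 and 4.

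**Figure D3:**
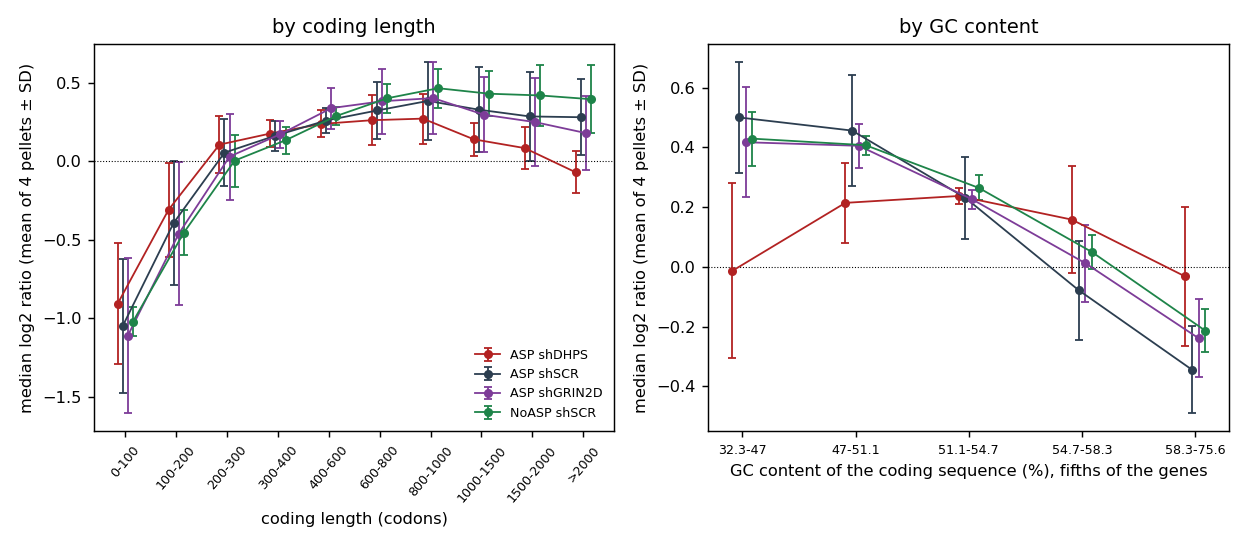
Median log2 ratio of polysomal over sub-polysomal RNA (y axes, mean of 4 pellets with SD bars) for 10486 genes, by length of the coding sequence in codons (left) and by 5 classes of its GC content in percent (right), 1 line per condition. All conditions rise with length up to about the middle classes. In the lowest GC class ASP shDHPS is at −0.01 and the other conditions are at 0.42 to 0.50.

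Because eIF5A acts at proline runs, genes were also split by these. The 2640 genes with at least 3 proline codons in a row had a median log2 ratio that differed from that of 7839 genes without by 0.175, −0.163, −0.126 and −0.150 in the 4 pellets. The mean was −0.07 ± 0.16 (SD, n = 4), against −0.08 in ASP shSCR, −0.06 in ASP shGRIN2D and 0.01 in NoASP shSCR. The difference was smaller than the spread between pellets, and replicate 1 had the opposite sign to the others. With the genes split into 5 classes of coding length, from the shortest to the longest, the difference in ASP shDHPS was −0.056 ± 0.106, −0.192 ± 0.088, −0.145 ± 0.162, −0.158 ± 0.132 and −0.162 ± 0.077 (SD, n = 4). The means of the other conditions were −0.187 to −0.128 in the shortest class, −0.308 to −0.275, −0.268 to −0.208 and −0.309 to −0.256 in the middle classes, and −0.222 to −0.149 in the longest. Within classes of length, genes with proline runs were thus lower in every mean of the 4 conditions, and in 4 of the 5 classes the ASP shDHPS mean was the nearest to 0 of the 4. These values were not tested. The spread of ratios over all genes differed from the other conditions by less than the spread between pellets, with an SD of 1.08 ± 0.17 in ASP shDHPS against 1.02, 1.12 and 1.06, and the exact permutation test over pellets gave p = 0.629, p = 0.657 and p = 0.914, or 0.789, 0.789 and 0.914 after adjustment over the same 6 comparisons. Without ASP shSCR replicate 1 the difference from that condition was −0.018 instead of 0.06.

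The other conditions, each with its own pellets, had similar numbers of calls, with 20.8% of genes higher and 18.9% lower in polysomal RNA of ASP shSCR, 23% and 20.4% in ASP shGRIN2D and 23.7% and 20.6% in NoASP shSCR. Of the 7654 called genes, 5410 were called with the same sign in ASP shSCR, 6263 in ASP shGRIN2D and 6246 in NoASP shSCR. These are 70.7%, 81.8% and 81.6% of the ASP shDHPS calls and 76.7%, 81.1% and 79.4% of the calls of the respective condition, while 33, 15 and 18 genes were called with the opposite sign. Without the ASP shSCR pellet that stood apart, 20.7% of genes were higher and 19.7% lower in that condition, and 5629 genes were shared, or 70.8% of the ASP shDHPS and 78.6% of the ASP shSCR calls. The lists with the highest and the lowest median were the same in all 4 conditions. The proteasome had medians of 1.43, 1.78 and 1.65 in ASP shSCR, ASP shGRIN2D and NoASP shSCR, and the mitochondrially encoded mRNAs −2.58, −3.87 and −3.42. That ASP shSCR pellet was at 0.866 for the proteasome and at −0.45 for the mitochondrially encoded mRNAs, and the other 3 pellets at 1.49 to 1.63 and at −3.52 to −2.92. Without it the medians of ASP shSCR were 1.54 and −3.39.

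Among lists that stood off from the other conditions were the cytosolic ribosomal proteins. The list median was −0.96, −0.76, −0.62 and −0.23 in the 4 ASP shDHPS pellets and between −1.46 and −0.76 in the 12 others, so the pellets overlapped. The median difference of its genes from the mean of the other conditions was 0.45, where that of all genes was 0.01, and with trends on transcript length and GC content removed it was 0.25, where other TOP mRNAs had 0.30 (0.20 before). Of its 79 genes 1 was called as higher and 0 as lower than the mean of the others. Mitochondrially encoded mRNAs had a median difference of −0.69 from the mean of the other conditions, which was −0.50 without ASP shSCR replicate 1 and −0.27 with the trends removed. Of the 13 genes 1 was called as lower and 12 were not called, and the list medians of the ASP shDHPS pellets (−4.53 to −3.15) overlapped with those of ASP shGRIN2D (−4.25 to −3.23) and NoASP shSCR (−3.74 to −2.56).

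**Figure D4:**
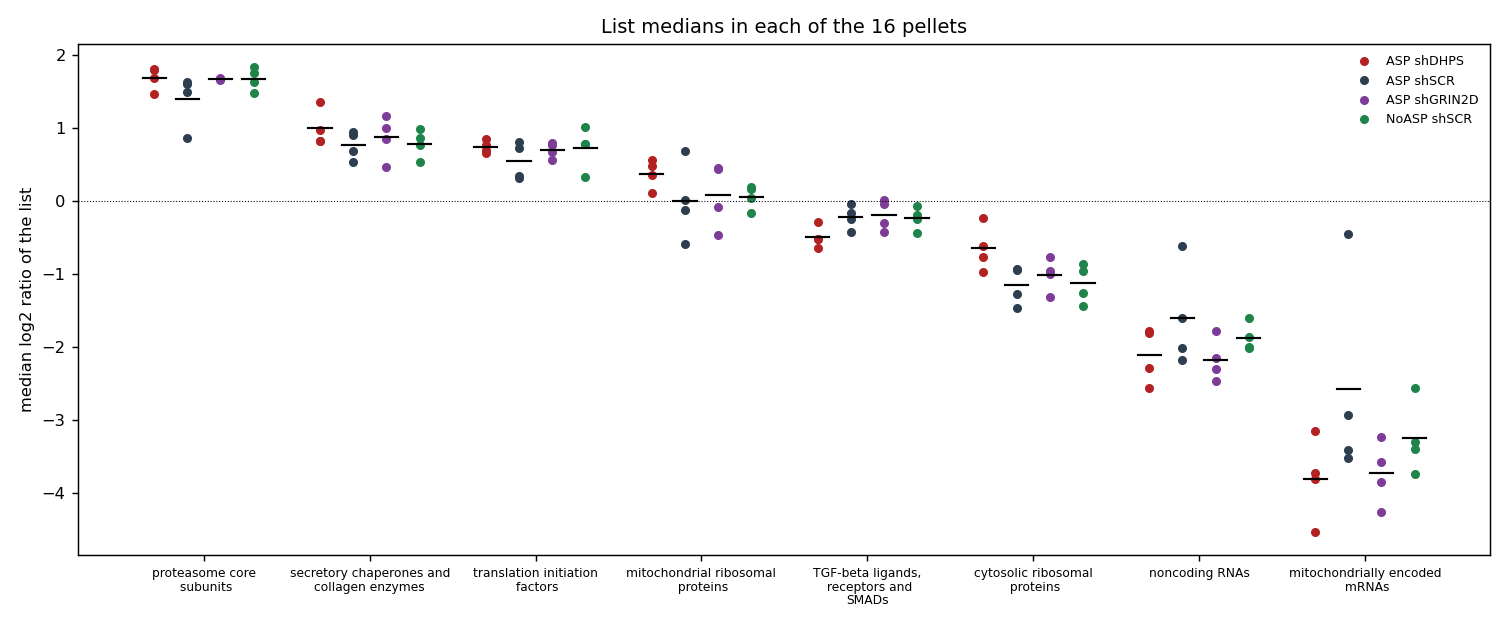
Median log2 ratio of polysomal over sub-polysomal RNA (y axis) of 8 gene lists (x axis) in each of the 16 pellets. Each point is 1 pellet, coloured by condition, and the bar is the mean of 4 pellets. In each list the ASP shDHPS pellets overlap with those of at least 1 other condition. The ASP shSCR pellet at −0.45 among mitochondrially encoded mRNAs is replicate 1.

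To find out which genes were particular to the silenced line, its ratios were tested against those of the other conditions in the same fit. These tests share the ASP shDHPS pellets. Against ASP shSCR 37 genes (0.208%) had a lower and 0 a higher ratio, against ASP shGRIN2D 1 gene (0.00563%) was lower, and against NoASP shSCR 0 genes passed (edgeR's quasi-likelihood test; 1245 had an unadjusted p under 0.05, and DESeq2's Wald test called 57). When the 3 other conditions were averaged, 183 genes (1.03%) were lower and 3 (0.0169%) higher, or 1.05% in either direction. The near absence of higher ratios did not hold under DESeq2's Wald test, which called 228 genes as higher and 436 as lower against ASP shSCR and 120 as higher and 431 as lower against the mean. The counts also depended on single pellets. The 37 calls against ASP shSCR became 0 without ASP shDHPS replicate 1, 3 or 4 or ASP shSCR replicate 4, and 1 without ASP shSCR replicate 2. They became 83 when ASP shDHPS replicate 2 was dropped and 28 when ASP shSCR replicate 1 was, and 18 of these 28 were among the 37. The 186 calls against the mean became 0 without ASP shDHPS replicate 3 and 1 without ASP shDHPS replicate 1, and 298 without ASP shSCR replicate 1, all 186 among them. A fit without the pellet term made 0 calls.

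The genes with a higher ratio in ASP shDHPS were Rps26, its transcribed processed pseudogene Rps26-ps1 and Ndufa13. Rps26 (chr10:128624534-128626747 in GRCm38), a protein of the small ribosomal subunit near the mRNA exit, had 1170, 1330, 1280 and 1357 CPM in polysomal and 1705, 1931, 1762 and 1425 CPM in sub-polysomal libraries of ASP shDHPS. Its log2 ratios were −0.54, −0.54, −0.46 and −0.07, all above the 12 other pellets, which lay between −1.63 and −1.01. The difference from their mean was 0.96 (adjusted p = 0.0236), a call lost without ASP shDHPS replicate 1, 3 or 4 (adjusted p = 0.096, 0.184 and 0.0628). Rps26-ps1 (difference 1.15, adjusted p = 0.0184) can share reads with Rps26 and is not a separate observation. Ndufa13 (chr8:69894180-69902558), a subunit of complex I, had ratios of 0.57, 0.45, 0.81 and 0.29, against −1.65 to 0.22 in the 12 other pellets (difference 1.02, adjusted p = 0.0388). Its call was lost with library size alone (adjusted p = 0.102), without any 1 of the ASP shDHPS pellets (adjusted p = 0.0573 to 0.273) or NoASP shSCR pellets (adjusted p = 0.0562 to 0.0693), and without ASP shSCR replicate 4 or ASP shGRIN2D replicate 3. Across all genes, 0.186% had ASP shDHPS pellets above all 12 others. The rule for naming asked for pellets without overlap, so that trait of these genes is no separate support.

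The 183 genes with a lower ratio had a median log2 ratio of −0.66 in ASP shDHPS and of 0.48, 0.28 and 0.37 in ASP shSCR, ASP shGRIN2D and NoASP shSCR. Of these genes 118 were called sub-polysomal in ASP shDHPS, 3 polysomal and 62 neither. For 105 of them the 4 pellets lay below all 12 others, as they did for 1.08% of all genes. Because the 183 were called for a lower ratio in these same pellets, this lack of overlap is no separate support. The rule for naming asked for it as well. The 3 named by the rule were Zfp52, Zfp946 and Rbm41. Zfp52 (chr17:21535539-21562601), a zinc finger protein, had 24 to 74 polysomal and 56 to 99 sub-polysomal counts per library, and its ratios of −1.01, −0.38, −1.55 and −0.38 lay below the others at 0.18 to 1.31 (difference −1.51, adjusted p = 0.0186). Zfp946 (chr17:22424222-22456689), of the same family, had ratios of −1.27, −1.07, −1.57 and −0.87, against −0.39 to 0.75 (difference −1.42, adjusted p = 0.0184), and it was also the gene that was lower than in ASP shGRIN2D (−1.89, adjusted p = 0.0274), a call lost without any 1 of these 8 pellets other than ASP shDHPS replicate 4. Rbm41 (chrX:139889511-139998595), an RNA-binding protein, had −1.04, −0.73, −0.66 and −0.34, against 0.15 to 1.54 (difference −1.40, adjusted p = 0.0236).

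Against ASP shSCR alone, the largest differences among called genes that met the rule for naming were those of ENSMUSG00000094410 (−1.94, adjusted p = 0.0443), Ankrd26 (−1.74, adjusted p = 0.0376) and Rbm41 (−1.65, adjusted p = 0.049). Ankrd26, an ankyrin repeat protein of the centriole, had 62 to 88 polysomal and 70 to 90 sub-polysomal counts per library of ASP shDHPS. Its ratios were −0.18, −0.05, −0.43 and −0.09 there and 1.17 to 1.83 in ASP shSCR. The rule that named these genes asked for pellets without overlap, and in this direction 4.7% of all genes had none.

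**Figure D5:**
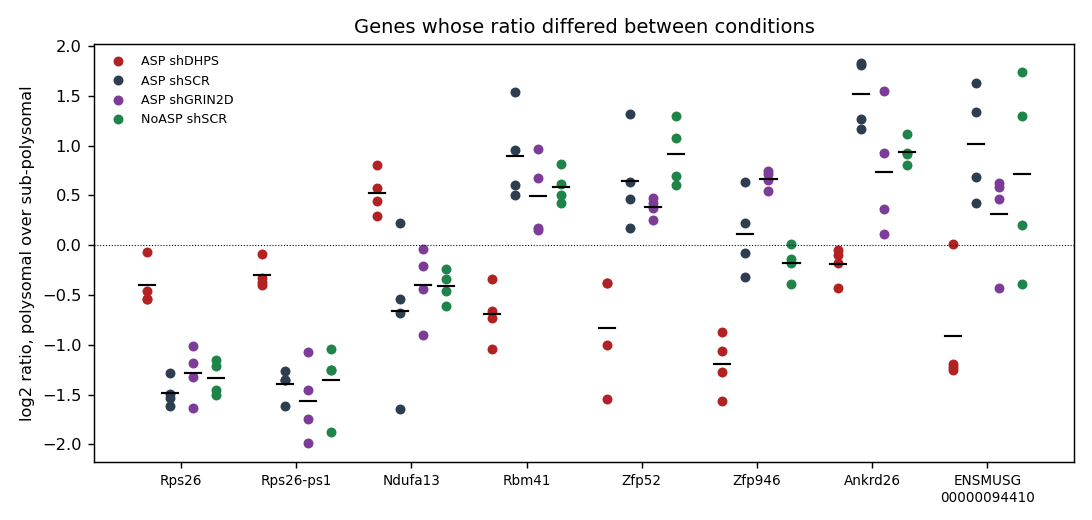
Log2 ratio of polysomal over sub-polysomal RNA (y axis) in each of the 16 pellets for the 8 genes named for a difference between conditions (x axis). Each point is 1 pellet, coloured by condition, and the bar is the mean of 4 pellets. Rps26, Rps26-ps1 and Ndufa13 sit higher in ASP shDHPS and the other genes lower.

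The 183 genes differed from all coding genes in their median length and base composition, which is given as a description with no test. Their median coding sequence was 3019.5 bases, against 1365 for all coding genes counted, their median GC content 43.7% against 53.2%, and their median 3′ UTR 1808.5 bases against 905.5. Zinc finger genes named Zfp made up 19 of the 183 and 359 of all 17757. When trends on transcript length and GC content were removed from each library, the median difference of the 183 genes from the mean of the others went from −0.99 to −0.50. None of them passed the threshold then. Since the genes were chosen for a lower ratio in the same libraries, the sign that remained is no separate support. What part the length and GC content of the libraries' RNA had in these calls was not tested beyond this. Of the 2640 genes with proline runs 63 were among the 183, and of the 7839 genes without 117, where 1.03% of all genes tested were. The longest of the 5 classes of coding length held 1041 genes with and 1055 without proline runs, and the shortest 193 and 1911. Length was not held fixed in these counts. The median difference from the mean of the other conditions was 0.03 over all 2640 genes and 0.02 over all 7839.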

How the data were processed

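Per the labels, matched polysomal and sub-polysomal fractions of 4 independent 4T1 spheroid pellets per condition were sequenced with a stranded mRNA kit after cycloheximide lysis and a non-linear sucrose gradient. The counts deposited by the authors are estimates per gene that were rounded to whole numbers and are not normalized. The authors' processing notes name Trim Galore 0.6.6, FastQC 0.11.9, STAR 2.6.1, Salmon 1.4.0, DESeq2 1.34.0 and GRCm39. Genes that no condition and fraction expressed in 3 or more of its 4 replicates had been removed by the authors, which left 17757. The authors' tables of differential translation and of gene set enrichment hold their own fold changes, scores and p-values and were not used. The deposited gene set collection gave the Hallmark sets.

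In R 4.3.3, edgeR 4.0.16 (TMM, quasi-likelihood F-test, two-sided) was fitted to all 32 libraries, with 1 coefficient per pellet and 1 polysomal to sub-polysomal log2 ratio per condition. Adjusted p-values are Benjamini-Hochberg values over all genes, with a threshold of 0.05. Ratios of single pellets used a prior count of 2. The p-values measure the spread between pellets of 1 polyclonal line per condition and 1 shRNA. Total counts were 16391556 to 21661418 in the 8 ASP shDHPS libraries. At that depth Rbm41, with 20 to 89 counts per library, had a standard error of its log2 ratio of 0.26. Pellet measures over the 11046 genes whose counts reached 10 in every library were compared by exact permutation. Lists were described by counts and medians without a test. Sequences and lengths came from GRCm38, since the annotation at hand was of that build, and 97.5% of the genes were matched to it. On simulated data the steps found most of the changes put into well-counted genes, but more of the calls were false than the threshold of 0.05 allows, and changes of low-count genes were often missed, so calls near the threshold are uncertain.

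Fractions with the same number in a condition come from the same pellet, as the labels call them matched. Correlations of the deviations of the polysomal and sub-polysomal library of a pellet were −0.242, 0.308, 0.126 and 0.035 in ASP shDHPS. Libraries with unequal numbers ran from −0.447 (polysomal 2 with sub-polysomal 3) to 0.413 (polysomal 2 with sub-polysomal 1). Equal numbers therefore did not stand out, and the pairing rests on the labels.

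The members and gene lists were chosen with earlier results of these data known. The genes named were the 10 with the largest ratio in each direction among called genes with a symbol, a mean of at least 50 counts and the same sign in 4 pellets, the highest, lowest and most abundant member of each list, all hypusine and polyamine genes, and up to 3 genes per direction and difference without overlap between pellets. Ftl1, Epas1, Tgfb1, Tgfbr1, Tgfbr2, Smad2, Smad3, Smad4, Mvk, Rps6, Rps27, Rpl41 and the cell type markers lay outside this rule and were chosen after their values were seen. Some genes and sets that the rule selects are not reported here. Alternatives were other normalizations, filters, tests and blocks, each pellet left out, and, added after seeing the data, trends on length and GC content removed with mgcv 1.9.3 before the same edgeR fit. DESeq2 1.42.0 served as the other test.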

Additional observations from a re-analysis of the deposited data

Results flagged for a closer look

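In the 4 ASP shDHPS pellets, 9 of the 84 named genes had a log2 ratio in 1 pellet that lay far from the other 3, and of 44 other measures over all conditions 4 had such a value, 2 of them in ASP shDHPS pellets. Chance gives about 1 in 20. Replicate 1 was the pellet in question for Nmral1 (3.01, others 2.09 to 2.24), Gm28439 (−6.02), Atp5b (2.27), Bmpr1a (−2.66), Psmd8 (−0.90, others 0.06 to 0.11) and Paox (1.33). For Rpsa (−2.33) and ENSMUSG00000094410 (0.011, others −1.25 to −1.19) it was replicate 2, and for Odc1 replicate 3 (−1.42, others −1.79 to −1.75). Replicate 1 also stood apart in the difference between genes with and without proline runs (0.175, others −0.163 to −0.126) and in that between genes with and without a TOP start (−0.331, others −0.215 to −0.194). It is the pellet with the widest ratios, at an SD of 1.32. The part of this spread in the single values was not tested.

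The share of mitochondrially encoded mRNAs was far from the other 3 libraries in the polysomal library of ASP shSCR replicate 1 (4.72%, others 0.692% to 1.00%) and in the sub-polysomal library of NoASP shSCR replicate 4 (7.99%, others 4.98% to 5.41%).

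Ratios that differed between conditions by a test of the difference were those of ENSMUSG00000094410 (−1.94), Ankrd26 (−1.74) and Rbm41 (−1.65) against ASP shSCR and of Zfp946 (−1.89) against ASP shGRIN2D. Against the mean of the other conditions they were those of Rps26-ps1 (1.15), Ndufa13 (1.02), Rps26 (0.96), Zfp52 (−1.51), Zfp946 (−1.42) and Rbm41 (−1.40). With length and GC trends removed none of these differences passed the threshold, while their sizes fell by unequal amounts, to 0.861 for Rps26 and 0.91 for Rps26-ps1 but to 0.674 for Ndufa13 and between −0.824 and −1.023 for the 3 genes that were lower than the mean. A lost call does not show that length or GC content accounts for a difference.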

How the results depend on the processing

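Of 76 genes named for ASP shDHPS, 67 were called and 57 of these stayed called under all 13 alternatives, with 0 changes of sign among called genes. The other 10 (Rpl7a, Eef1a1, Tfrc, Snhg3, Col7a1, Ltbp3, Fmnl3, Dohh, Oaz2 and Paox) lost the call under at least 1. The 7654 calls became 6373 to 8083 over all alternatives. Without the replicate block of pellets there were 7527, of which 7160 were shared, and Tfrc (adjusted p = 0.0841), Snhg3 (0.0525), Col7a1 (0.0567) and Oaz2 (0.0715) were not called. Signs turned only for genes that were never called. With genes under 10 counts in any library left out, the log2 ratio was −0.034 for Eif5a, −0.002 for Vasp, −0.01 for Dhps and −0.044 for Smox, and Smox had −0.006 with DESeq2 size factors and DESeq2's Wald test. With 1 ASP shDHPS pellet left out, the ranges were −0.083 to 0.183 for Eif5a, −0.015 to 0.116 for Dhps, −0.258 to 0.076 for Psmd8 and −0.091 to 0.182 for Smox.

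The 37 calls against ASP shSCR became 266 with at least 10 counts in every library, 188 with edgeR's filterByExpr, 664 (228 higher, 436 lower) with DESeq2's Wald test, 231 with a replicate block over conditions and 14 among genes with length and GC content. They became 0 with DESeq2 size factors, with no replicate block, with only these conditions, and with length and GC trends removed. The 1 call against ASP shGRIN2D became 2 with either filter, 37 with DESeq2's Wald test, and 0 with no replicate block, with only these conditions or with trends removed. The 0 calls against NoASP shSCR became 5 with at least 10 counts, 2 with filterByExpr, 57 with DESeq2's Wald test, 1 with the replicate block over conditions and 123 with only these conditions. The 186 against the mean of the others became 114 with DESeq2 size factors, 364 with at least 10 counts, 294 with filterByExpr, 551 (120 higher, 431 lower) with DESeq2's Wald test, 327 with the replicate block over conditions, and 0 with no replicate block or with trends removed. The cause was not tested, except that the filters and the restriction to genes with length and GC content also change how many genes are tested.

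With 1 pellet left out, the calls were 0 to 83 against ASP shSCR, 0 to 1 against ASP shGRIN2D and 0 to 298 against the mean. For ASP shSCR as the comparison, 0 were left without ASP shDHPS replicate 1, 3 or 4 or ASP shSCR replicate 4, 1 without ASP shSCR replicate 2, 28 without its replicate 1, and 83 when ASP shDHPS replicate 2 was dropped. For the mean, there were 0 without ASP shDHPS replicate 3, 1 without its replicate 1, 298 without ASP shSCR replicate 1, 81 without ASP shSCR replicate 4 and 76 without ASP shGRIN2D replicate 3. Without NoASP shSCR replicate 1, 2, 3 or 4 they were 113, 118, 90 and 114. Left-out pellets moved the log2 difference of Dhps in polysomal RNA within −1.779 to −1.477. The difference in spread over genes, which passed no test, ranged from −0.021 to 0.106 against ASP shSCR, −0.123 to 0.01 against ASP shGRIN2D and −0.069 to 0.058 against NoASP shSCR.

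Equal replicate numbers of different conditions had correlations of −0.253 to 0.672, with 8 of 12 over 0.1, and an ASP shDHPS pellet was closest to its own number in 6 of 12 cases. Since the labels name no shared batch and not every pair passed 0.1, the numbers were not used as pairs, but a shared batch was not tested further. Taken by number, rho with coding length was lower in ASP shDHPS than in ASP shGRIN2D in 4 of 4 cases, than in NoASP shSCR in 3 and than in ASP shSCR in 2. Library size alone moved the median difference of all genes from −0.013 to −0.118 against ASP shSCR and from 0.01 to −0.111 against ASP shGRIN2D. With transcript length in place of coding length, rho differed from NoASP shSCR by −0.163 (exact permutation p = 0.0286). With a TOP start allowed within 3 bases the difference was −0.094.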

Other observations

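Among the 50 Hallmark gene sets of the deposited collection, fatty acid metabolism had the highest median log2 ratio in ASP shDHPS (1.04, with 86 of 135 counted genes higher in polysomal and 11 in sub-polysomal RNA). It was followed by the MYC targets V2 (0.86, 37 and 7 of 58), the MYC targets V1 (0.79, 127 and 29 of 201) and the interferon alpha response (0.75, 52 and 5 of 102). Among the lowest medians were those of TGF beta signaling (−0.40, 14 higher and 25 lower of 51), WNT beta catenin signaling (−0.18, 10 and 6 of 35) and heme metabolism (−0.14, 40 and 55 of 168). Over all genes 21.8% were higher and 21.3% lower, with a median of −0.09.

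RNA classes of the annotation differed as well. Of 662 lincRNA genes 1 (0.151%) was higher in polysomal and 119 (18.0%) higher in sub-polysomal RNA, with a median of −1.05. Of 616 antisense genes 3 (0.487%) and 88 (14.3%) were (median −0.88). Both sub-polysomal shares lay below the 21.3% of all genes. These classes stood apart in their medians and in their few polysomal calls, where all genes had 21.8%. The 1513 processed pseudogenes, whose reads can come from their parent genes, were balanced at 110 and 97 (median 0).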
